A study of Mus musculus with 6 samples.

Results

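The respiratory chain genes described here encode the nuclear subunits of complexes I, III, IV and V and cytochrome c, followed in mouse bone marrow-derived macrophages given interferon-gamma (IFN-γ) for 3 h or left untreated. Members were chosen by gene name (Nduf subunits, Uqcr, Cyc1, Cycs, Cox4 to Cox8 and Atp5 genes, without pseudogene names) and by a minimum of 10 counts in at least 3 of the 6 libraries. This gave 81 members of 86 matched names, among 36706 entries in all. There were 3 libraries per group: wild-type macrophages with IFN-γ, a cytokine that activates macrophages, and wild-type macrophages without it. The cells of both groups were grown from bone marrow with 10% serum and 20 ng/mL M-CSF, and the labels used here give no IFN-γ dose, strain, sex or age of the mice. The series concerns the induction by IFN-γ of ACOD1, the itaconate-producing enzyme of mitochondria.

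The respiratory chain sits in the inner mitochondrial membrane. Complex I takes electrons from NADH, complex III passes them to cytochrome c, and complex IV hands them to oxygen, while complex V, the ATP synthase, uses the resulting proton gradient to make ATP. Most subunits are encoded in the nucleus and imported, and a few catalytic ones are encoded by mitochondrial DNA and are not analysed here. Activated macrophages are known for a shift of energy metabolism from respiration to glycolysis, and complex I and III are also known sources of reactive oxygen species in these cells.

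Total counts ran from 32628170 to 34233607 in the IFN-γ libraries and from 28133342 to 31173432 in the untreated ones. All 8 macrophage markers examined, among them Adgre1 and Csf1r, had at least 10 counts in every library. Markers of T cells, B cells, red cells, dendritic cells, fibroblasts and mast cells summed to at most 1.56 TPM per list in any library. Those of neutrophils and their precursors, of which 4 of 5 had at least 10 counts in every library and none was at 0, summed to between 529 and 550.6 TPM with IFN-γ and between 341 and 400.2 TPM untreated, and those of megakaryocytes to between 20.8 and 23.1 TPM with IFN-γ and between 23.9 and 26.3 TPM untreated. The part of these cells in the results below was not tested. Whether each replicate had its own mouse or culture is not in the labels, and p-values therefore cover a spread between libraries that could be purely technical. In bulk samples a change in cell number and a change in RNA per cell cannot be told apart.

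At 3 h most respiratory chain genes lay within 1.15 times of their untreated level, while AA467197, whose product is a relative of the complex IV subunit NDUFA4, was 14.5 times higher. Of the 81 members, all of which were tested, 3 were called higher with IFN-γ and 0 lower (Cycs, Uqcrc2 and Ndufb4c, the last of which reached the count minimum only through its IFN-γ libraries), by the quasi-likelihood test of edgeR at a Benjamini-Hochberg adjusted p of 0.05 over 12968 genes. That is 3.70% of the members. In the same test 19.6% of all genes were called higher and 16.8% lower. Many members are short, and of the 772 tested genes under 1000 bases 71 were called higher and 58 lower. At an unadjusted p under 0.05, 4 members passed. The median log2 fold change was -0.01 over the members and -0.01 over all genes tested, and 37 members lay above and 44 below 0. Of the 75 members with a mean of at least 20 CPM (counts relative to library size, with TMM scaling factors), 74 had a log2 fold change within 0.2 of 0, less than 1.15 times. The 95% interval lay within 0.5 of 0 (1.41 times) for 74 of these 75, so changes beyond that size lie outside their intervals. The median standard error was 0.117 over these 75 and 0.0746 over all genes of at least 20 CPM. A change of a given size was therefore harder to call among the members. IFN-γ and untreated libraries did not overlap for 4 members (Ndufs1, Uqcrc2, Atp5a1 and Ndufb4c), all higher with IFN-γ. For Ndufb4c that direction was set by the count minimum, which it met only in its IFN-γ libraries. Of all genes, 25.9% lay apart on the higher side and 24.2% on the lower.

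**Figure D1:**
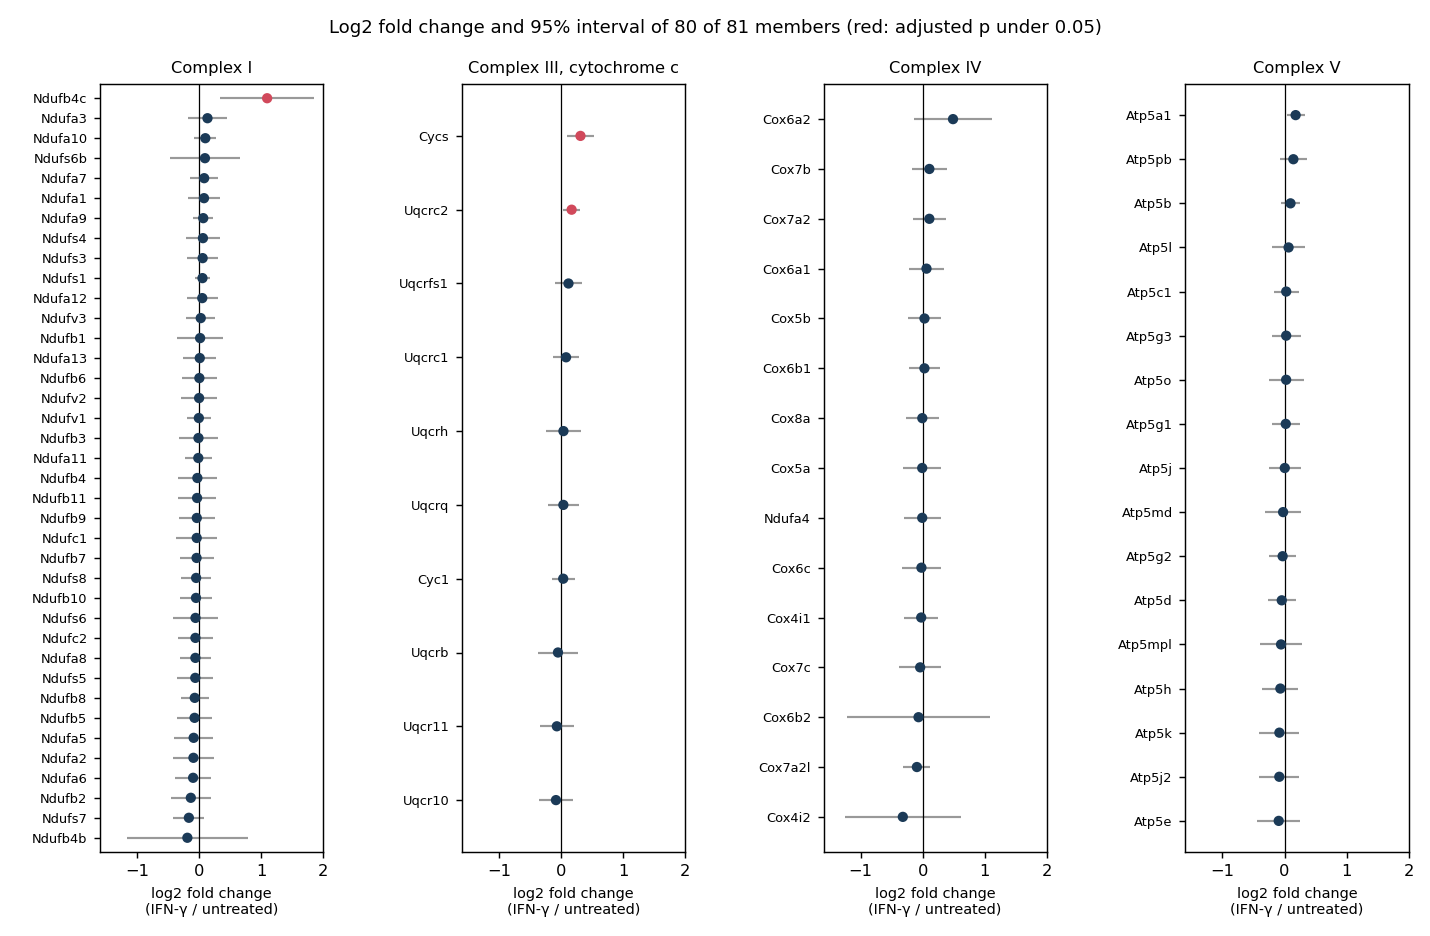
Log2 fold change (IFN-γ over untreated, x axis) of 80 of the 81 members by complex, with points for the estimate, bars for the 95% interval and red points for adjusted p under 0.05. Only Ndufb4c, Cycs and Uqcrc2 are red, and the widest bars belong to the 6 members with the lowest counts.

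Untreated replicate 2 stood apart from the other libraries for these genes. Each member was compared in each library with the mean of the other 2 libraries of its group. In untreated replicate 2, 79 of 81 members lay above the others, with a median of 0.39 on the log2 scale, or 1.31 times. The medians in untreated replicates 1 and 3 were -0.22 and -0.15, and those in IFN-γ replicates 1, 2 and 3 were -0.18, 0.08 and 0.10. Of the 81 members, 71 had their highest CPM of all 6 libraries in untreated replicate 2. The same held for 3489 of 12968 genes tested and for 489 of the 772 under 1000 bases. It also held for 55 of 61 cytosolic and 47 of 52 mitochondrial ribosomal protein genes. All complexes deviated upward in untreated replicate 2. The medians there were 0.39 for complex I, 0.34 for complex III with cytochrome c, 0.41 for complex IV and 0.38 for complex V.

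**Figure D2:**
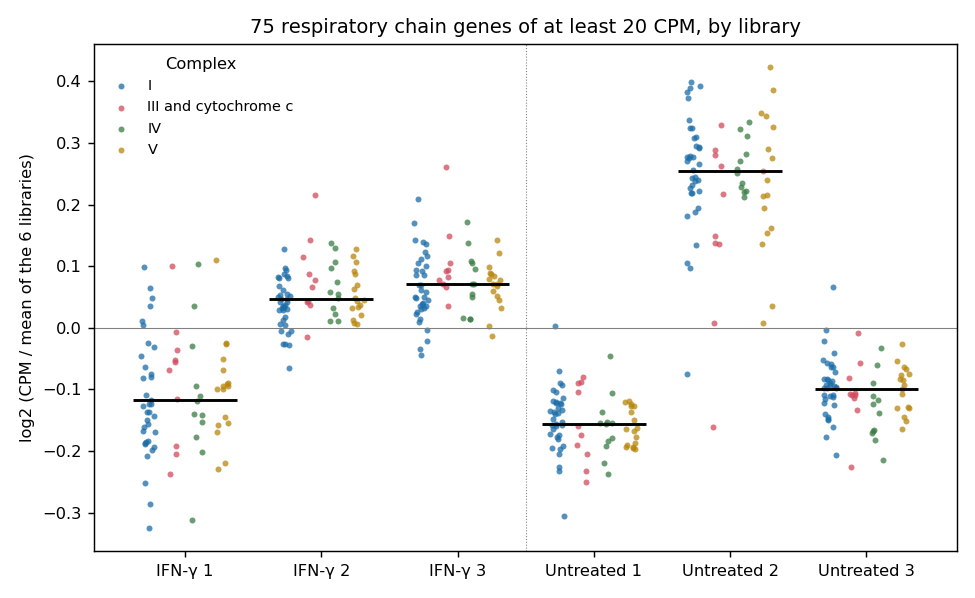
Level of the 75 members of at least 20 CPM in each library, as log2 of CPM over the member's mean in the 6 libraries (y axis), with points for genes coloured by complex and black lines for the median. Untreated replicate 2 stands above the other 5 libraries in every complex, and IFN-γ replicate 1 lies below the other 2 IFN-γ libraries.

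The transcripts of these genes are short: the median exon length was 754 bases over the members, 49 of which are under 1000 bases, against 3674 bases over all genes tested. Libraries differed in how their deviation varied with exon length. Over all tested genes, the deviation from the rest of the group changed by -0.14 log2 units per doubling of exon length in untreated replicate 2, by 0.10 and 0.04 in untreated replicates 1 and 3, and by 0.06, -0.02 and -0.04 in IFN-γ replicates 1, 2 and 3. The 772 tested genes under 1000 bases had a median deviation of 0.36 in untreated replicate 2, next to 0.39 for the respiratory chain. Among the members, the shorter ones deviated more in that library (Spearman's rho of -0.62 across 81 genes, which share the same libraries and are not independent). Cox5a and Atp5j, with listed lengths of 3153 and 4137 bases, had long exons and a large deviation. They were picked out after their values were seen. The listed length of every gene joins all its annotated exons. Whether length itself causes the deviation was not tested.

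**Figure D3:**
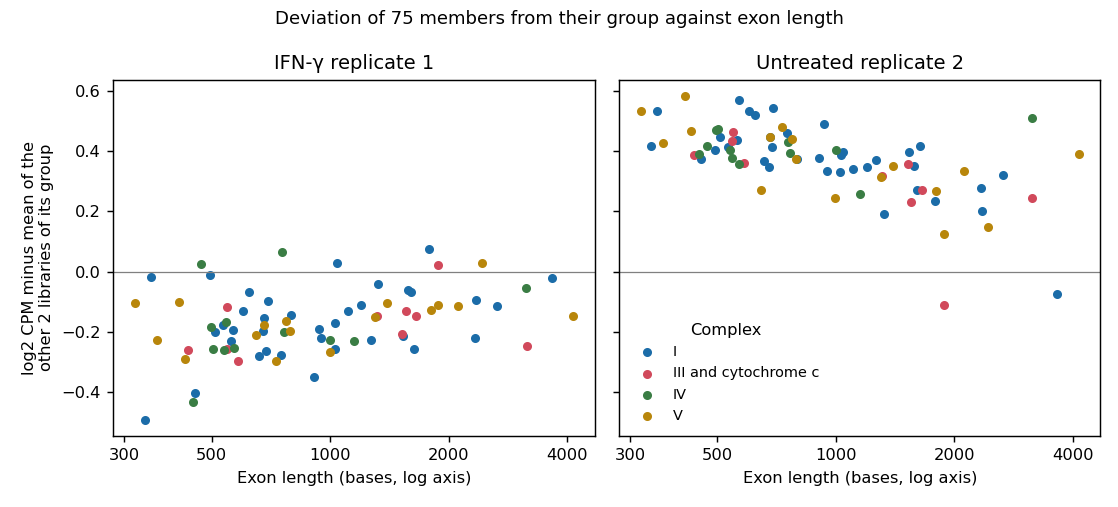
Deviation of the 75 members of at least 20 CPM from the mean of the other 2 libraries of the group (log2, y axis) against exon length (bases, log axis), in IFN-γ replicate 1 and in untreated replicate 2. In untreated replicate 2 nearly all points lie above 0 and fall with length, and in IFN-γ replicate 1 most lie below 0.

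The number of calls rested on that library. Without untreated replicate 2, 25 members were called higher and 0 lower, where 24.0% of all genes were called higher in the same fit and 21.1% lower. The median of the members was then 0.13, with 78 of 81 above 0. The calls numbered 10 in complex I, 5 in complex III with cytochrome c, 5 in complex IV and 5 in complex V, and among those of at least 20 CPM the log2 fold changes were at most 0.40. In that fit the tested genes under 1000 bases had a median of 0.09, with 512 of 772 above 0. Of these 772, 159 were called higher and 50 lower. Over all genes, the log2 fold change varied by -0.05 per doubling of exon length, against -0.004 with all 6 libraries. With each library's trend on exon length removed and all 6 libraries kept, 13 members were called higher and 0 lower, where 25.8% of all genes were higher and 20.2% lower, and 11 of the 13 were among the 25. With both steps 24 were called higher, where 28.2% of all genes were higher and 21.1% lower, and 18 of these 24 were among the 25. The median of the members was 0.04 with the trend removed and 0.07 with both steps. This trend removal also takes out any effect of IFN-γ that follows transcript length. As shares of the members the counts of 25, 13 and 24 are 30.9%, 16.05% and 29.6%.

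Other settings gave fewer calls. With RLE scaling, DESeq2, limma-voom, a robust fit, replicate numbers as blocks or scaling on genes under 2000 bases, 2 members each were called higher and 0 lower. All genes were called higher in 19.5%, 19.3%, 19.7%, 19.5%, 21.0% and 13.3% in these 6 fits and lower in 16.9%, 15.4%, 16.6%, 16.7%, 17.9% and 9.56%. Upper quartile scaling gave 1 member higher, where 13.9% of all genes were higher and 31.6% lower. No filter on low counts and a filter of 5 CPM gave 1 each, where 11.7% and 20.1% of all genes were higher and 9.44% and 20.1% lower. At an adjusted p under 0.01 the count was 0, where 13.8% of all genes were higher and 9.58% lower. Leaving out a library other than untreated replicate 2 gave 0 or 1, where 15.2% to 18.5% of all genes were higher and at most 14.6% lower.

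**Figure D4:**
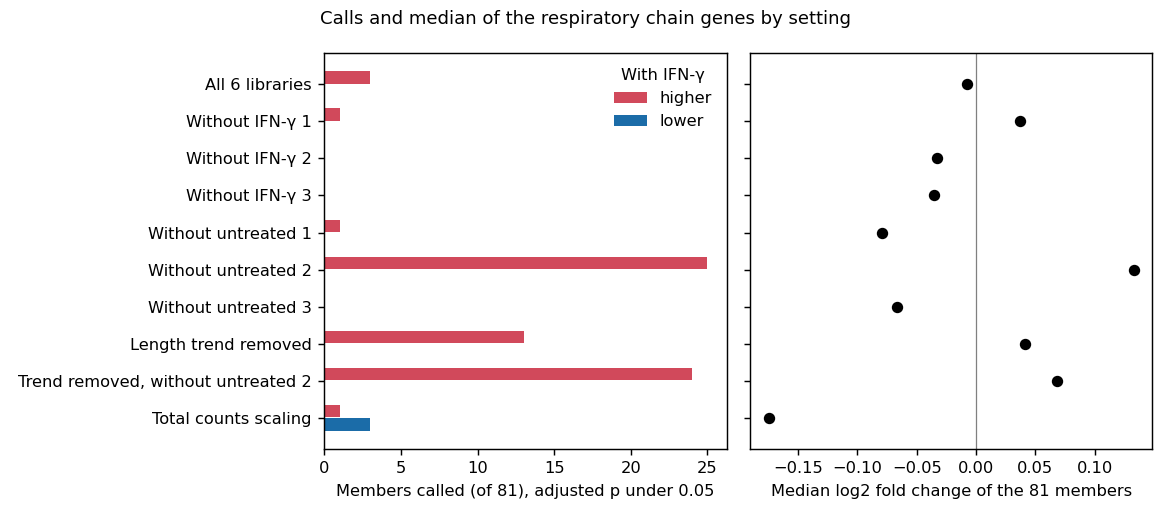
Number of members called higher or lower (left, bars) and median log2 fold change of the 81 members (right, points) with all 6 libraries, with each library left out, with the length trend removed and with total counts as scaling. The count is 25 without untreated replicate 2, 13 and 24 with the trend removed, and at most 3 elsewhere.

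Complex I had 39 members. Its flavoprotein and iron-sulfur subunits, which carry electrons from NADH towards ubiquinone, showed no call. Ndufs1, the largest subunit, had 75.8, 77.1 and 76.8 CPM with IFN-γ and 75.4, 71.4 and 74.99 CPM untreated. The groups did not overlap, but the log2 fold change was 0.05 ± 0.05 (SE) and the adjusted p was 0.494. Ndufv1, which binds NADH and FMN, averaged 68.1 ± 1.84 CPM with IFN-γ and 68.5 ± 7.76 CPM untreated (SD, n = 3 each). The log2 fold changes of Ndufv2, Ndufs3, Ndufs4 and Ndufs8, other subunits of the core or its rim, lay between -0.05 and 0.06; Ndufv2 overlaps Ankrd12 on the same strand over 27.7% of its exon length. Ndufs7, which carries the last iron-sulfur cluster before ubiquinone, had the lowest value among members of at least 20 CPM, -0.17 ± 0.11 (adjusted p = 0.269). Its levels were 39.6, 43.6 and 43.1 CPM with IFN-γ and 40.5, 55.0 and 46.5 CPM untreated, so the groups overlapped. With untreated replicate 2 left out the value of Ndufs7 was -0.05 and Ndufs4 was called (0.20 ± 0.07, edgeR's adjusted p = 0.0419).

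The most abundant complex I transcripts per length were those of the small accessory subunits Ndufa3 and Ndufb1. Ndufa3 stood at 687 ± 21.8 TPM with IFN-γ and 675 ± 99.4 TPM untreated, and Ndufb1 at 641 ± 101 TPM and 688 ± 65.3 TPM (SD, n = 3). These 2 genes did not differ beyond their spread. Over 23.3% of its exon length Ndufb1 overlaps Cpsf2 on the other strand, which averaged 2941 counts, against 3378 for Ndufb1. Without untreated replicate 2 Ndufa3 had a log2 fold change of 0.33 ± 0.05 (adjusted p = 0.000636), against 0.13 ± 0.14 with all 6 libraries, and the accessory subunit genes Ndufa1, Ndufa7, Ndufa9, Ndufa10, Ndufa12, Ndufc1 and Ndufv3 were called as well, at 0.13 to 0.22. At the other end, the copies Ndufb4c, Ndufb4b and Ndufs6b had means of 1.65, 4.82 and 6.76 TPM over all libraries. Above them stood Ndufa11, a membrane-arm subunit, at 40.4 TPM and Ndufs1 at 43.0 TPM.

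Ndufb4c was the 1 member of complex I that was called. It is a copy of Ndufb4, and its level was near the detection limit: 15, 21 and 14 counts with IFN-γ and 9, 8 and 6 counts untreated, which do not overlap. It reached the minimum of 10 counts in 3 libraries only through the IFN-γ group, so it could enter only by being higher there, and its call supports nothing about the members. Its log2 fold change was 1.09 ± 0.33, and edgeR gave an adjusted p of 0.0312. Every 50-base stretch of its transcript also occurs in another gene, mainly Ndufb4, so its counts are uncertain. Ndufb4 itself had 1681, 2070 and 2163 counts with IFN-γ and 1745, 2244 and 1996 counts untreated. The call was lost in 7 of 17 other settings, among them without any 1 of the IFN-γ replicates (adjusted p of 0.0558, 0.127 and 0.0539 without replicates 1, 2 and 3), without untreated replicate 3 (0.118) and with DESeq2 (0.1001). The further copies Ndufb4b and Ndufs6b, at 0.62 to 2.098 CPM, had log2 fold changes of -0.19 ± 0.42 and 0.09 ± 0.25.

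Complex III and cytochrome c held both of the other calls. Cycs encodes cytochrome c, the soluble carrier between complexes III and IV that also triggers the apoptosome when it leaves the mitochondrion. It had 134, 156 and 161 CPM with IFN-γ and 113, 135 and 115 CPM untreated. The highest untreated library, replicate 2, lay just above the lowest IFN-γ library, replicate 1. Cycs rose 1.24 times, by 0.31 ± 0.10 on the log2 scale (edgeR, adjusted p = 0.0339). The value was 0.14 with total counts and 0.16 with upper quartile scaling, with adjusted p of 0.192 and 0.213. Leaving out IFN-γ replicate 2 or 3 or either of untreated replicates 1 and 3 also ended the call (adjusted p between 0.0935 and 0.125). Without untreated replicate 2 the log2 fold change was 0.40 and the adjusted p 0.00277. Of the 50-base stretches of its transcripts, 25.9% occur in other annotated genes, Gm10053 foremost, so its count is uncertain to that extent. The tables place Cycs on chromosome 6, minus strand, from 50539543 to 50543549, in coordinates whose build they do not name.

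The sequence before the start of Cycs is shown because cytochrome c has the largest called change among members of at least 20 CPM and its promoter holds the letters of known regulators of respiratory genes. Capitals mark, in 5′ to 3′ order, the letters TGACGTCA of the cAMP response element, GCATGCGC of the core of an NRF1 site and CCAAT of a CCAAT box, which do not overlap here. NRF1 and CREB are known regulators of the cytochrome c gene in rodents. The 250 bases before the RefSeq start lie on the minus strand at chr6:50566570-50566819 (GRCm38.p6).
Cycs: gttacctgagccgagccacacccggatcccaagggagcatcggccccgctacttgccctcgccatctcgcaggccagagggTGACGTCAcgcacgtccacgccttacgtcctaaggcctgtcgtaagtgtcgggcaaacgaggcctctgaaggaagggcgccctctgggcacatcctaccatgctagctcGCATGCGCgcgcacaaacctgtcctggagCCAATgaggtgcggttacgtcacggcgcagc

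RefSeq windows were matched for 65 of the 81 members, with 70 windows of 250 bases before a start, and each motif was searched on both strands. GCATGCGC was found in 11.4% of the members' windows and in 2.26% of all 32851 windows. TGACGTCA was in 7.14% and 1.55%, and CCGGAAG, the core of sites for ETS factors such as GABPA, in 15.7% and 6.91%. The shorter CCAAT was in 40.0% and 33.9%. The interferon motifs GAS and ISRE and the motif of YY1 were searched in the same way. GAS was in 8.57% of the members' windows and 7.02% of all windows. ISRE was in 2.86% and 2.98%, and YY1 in 1.43% and 1.56%. The difference between the members' windows and all windows was not tested for any motif. A match of letters is a description and not a site shown to be used.

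Uqcrc2, a core subunit of complex III, had between 97.7 and 100 CPM in the 3 IFN-γ libraries and 87.8, 83.5 and 92.8 CPM untreated. The groups did not overlap, and unlike most members it was lowest in untreated replicate 2. Uqcrc2 rose by 0.17 ± 0.06 on the log2 scale (edgeR, adjusted p = 0.0492), just under the threshold. It lost its call in 15 of 18 alternative settings, and the log2 fold change was -0.001 with total counts as scaling. Over 26.7% of its exon length it overlaps Pdzd9 on the other strand, which averaged 87.2 counts against 2929 for Uqcrc2. Its partner Uqcrc1 had 141, 155 and 158 CPM with IFN-γ and 131, 161 and 136 CPM untreated, a log2 fold change of 0.08 ± 0.09. The genes of the catalytic subunits Uqcrfs1, the Rieske iron-sulfur protein, and Cyc1, cytochrome c1, were at 0.12 ± 0.10 and 0.03 ± 0.08, with adjusted p of 0.387 and 0.777. Uqcrfs1, Uqcrc1 and Uqcrh were called without untreated replicate 2, at 0.23 ± 0.06, 0.18 ± 0.06 and 0.20 ± 0.06, and Uqcrc2 was at 0.13 ± 0.05. Per length, Uqcrb and Uqcrh, small subunits, were the most abundant, at 616 ± 54.1 and 565 ± 11.3 TPM with IFN-γ and 688 ± 82.5 and 593 ± 64.6 TPM untreated (SD, n = 3). Uqcrb shares 25.4% of its 50-base stretches with other genes.

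Complex IV had 15 members above the minimum, Ndufa4 included, and none was called. Ndufa4 was named as a complex I subunit and is now assigned to complex IV. It had 165, 187 and 188 CPM with IFN-γ and 161, 222 and 160 CPM untreated, and the untreated values enclosed the IFN-γ ones. Its log2 fold change was -0.01 ± 0.13, with a 95% interval from -0.31 to 0.29. Cox4i1, a regulatory subunit present in most tissues, had 338, 386 and 392 CPM with IFN-γ and 335, 450 and 351 CPM untreated. Cox5a and Cox5b, subunits that stand next to the mitochondrially encoded core, were at -0.01 ± 0.13 and 0.03 ± 0.11. The values of Cox7a2 and Cox7b, small membrane subunits, were 0.11 ± 0.12 each. Both were called without untreated replicate 2, at 0.26 ± 0.05 and 0.25 ± 0.07, as were Cox5a and Cox6b1, at 0.18 ± 0.05 and 0.18 ± 0.04. Cox6b1, which faces the intermembrane space, and Cox7c were the most abundant of all members per length. Cox6b1 had 1083 ± 47.9 TPM with IFN-γ and 1146 ± 109 TPM untreated, and Cox7c had 1051 ± 145 TPM with IFN-γ and 1172 ± 97.0 TPM untreated, which do not differ from each other beyond their spread. Cox7c shares 22.1% of its 50-base stretches with other genes.

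Tissue-restricted isoforms of complex IV were scarce. Cox6a2, the heart and muscle form, made up 0.531%, 0.562% and 0.486% of the Cox6a TPM with IFN-γ and 0.373%, 0.466% and 0.320% untreated. These shares did not overlap (exact permutation test, two-sided, p = 0.1, the smallest that 3 against 3 allows; 0.4 after Benjamini-Hochberg adjustment over 8 shares). By the fit over all genes Cox6a2 had 0.968 ± 0.126 CPM with IFN-γ and 0.695 ± 0.253 CPM untreated (SD, n = 3 each), with an adjusted p of 0.212; without untreated replicate 2 it was called at 0.81 ± 0.26 (adjusted p = 0.0296). Cox4i2, a form known to respond to low oxygen, and Cox6b2, a testis form, lay at or below 0.44 CPM in every library and took at most 0.124% and 0.112% of their pairs' TPM. Cox4i2 was just inside the minimum, with 13, 4 and 8 counts with IFN-γ and 9, 11 and 11 counts untreated. Cox7a1, a muscle form, was just outside it, with 3, 7 and 5 counts with IFN-γ and 2, 6 and 3 counts untreated. Ndufa4l2, a relative of Ndufa4 induced by HIF-1, had at most 1 count in any library, and Cox7b2, Cox8b and Cox8c had 0 counts in all 6, where a count of 0 allows up to 3 counts in a library. Cox7a2l, a factor of supercomplexes of III and IV, made up 35.4 ± 2.69% of its summed TPM with Cox7a2 with IFN-γ and 38.9 ± 1.70% untreated (SD, n = 3; exact permutation test, p = 0.2).

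The NDUFA4 relative AA467197, also known as Nmes1, had the largest change among the respiratory genes examined. It is not among the 81 members and comes from a list of other respiratory genes. Its product is known to take the place of NDUFA4 in complex IV in inflamed cells, and its transcript also carries the microRNA miR-147, for which NDUFA4 is a known target in human cells. The counts were 1220, 1460 and 1555 with IFN-γ and 85, 103 and 102 untreated, which are far apart. AA467197 rose 14.5 times, by 3.86 ± 0.14 on the log2 scale (edgeR, adjusted p = 2.84e-07), and by between 3.69 and 3.96 in the 18 other settings. Set against Ndufa4 per length, AA467197 made up 15.04%, 16.5% and 17.1% of the summed TPM of both genes with IFN-γ and 1.34%, 1.202% and 1.45% untreated (exact permutation test, two-sided, p = 0.1, the smallest possible; 0.4 after adjustment). Even so, Ndufa4 remained the more abundant of the pair, at 724 ± 28.5 TPM with IFN-γ against 141 ± 16.2 TPM for AA467197. Untreated macrophages had 786 ± 92.1 TPM of Ndufa4 and 10.5 ± 0.468 TPM of AA467197 (SD, n = 3).

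**Figure D5:**
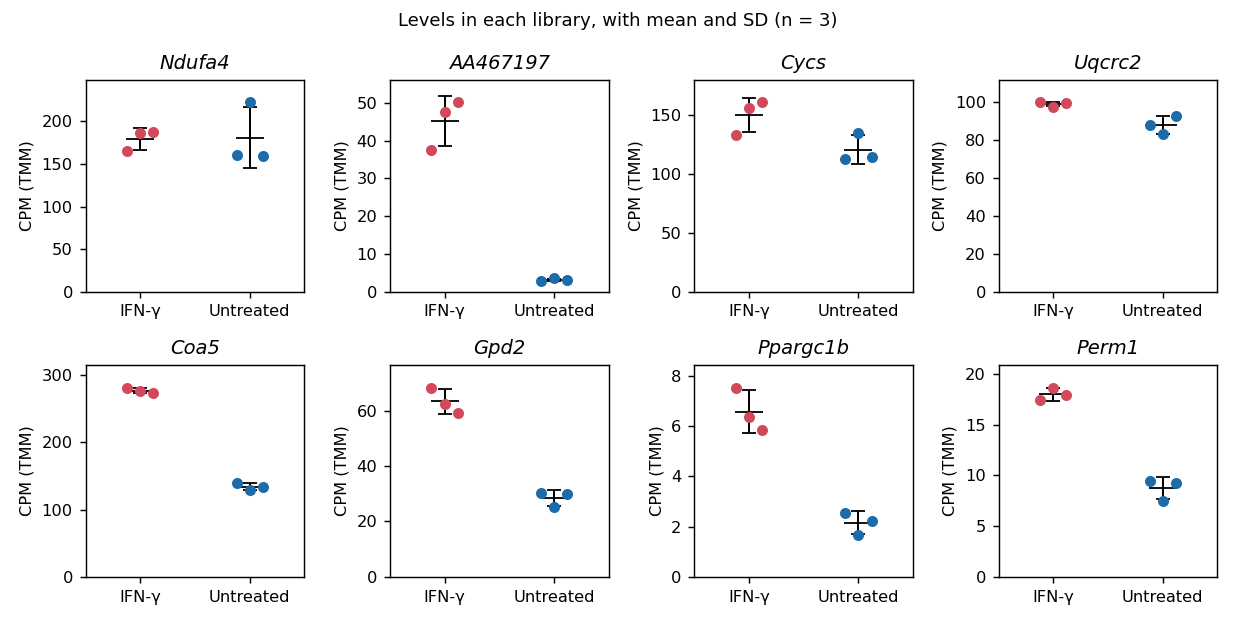
CPM with TMM factors (y axis, from 0) of 8 genes in the 3 IFN-γ and 3 untreated libraries, with points for libraries and bars for mean and SD. The means of AA467197, Coa5, Gpd2, Ppargc1b and Perm1 are higher with IFN-γ by a factor of 2 or more. Those of Cycs and Uqcrc2 differ by less, and the groups overlap for Cycs and Ndufa4.

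The tables place AA467197 on chromosome 2, plus strand, from 122479807 to 122482996, with 640 bases of exon, and Ndufa4 on chromosome 6, minus strand, from 11900371 to 11907449. The 250 bases before the RefSeq start of AA467197 lie on the plus strand at chr2:122637637-122637886 (GRCm38.p6). They are shown because of that change. Capitals mark the letters TGACTCA of an AP-1 site, found on either strand in 7.14% of the members' windows and 4.46% of all windows. No other motif searched, GAS and ISRE included, was found in this window.
AA467197: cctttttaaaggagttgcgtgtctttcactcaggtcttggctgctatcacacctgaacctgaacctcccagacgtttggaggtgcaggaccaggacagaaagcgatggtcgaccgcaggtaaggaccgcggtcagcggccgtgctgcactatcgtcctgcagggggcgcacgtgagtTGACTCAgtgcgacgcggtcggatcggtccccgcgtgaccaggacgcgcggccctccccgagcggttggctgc

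Complex V had 17 members and 0 calls. The catalytic subunit gene Atp5b, the beta chain, was the most abundant of all members in CPM, at 784, 848 and 845 CPM with IFN-γ and 731, 817 and 769 CPM untreated, with overlapping groups and a log2 fold change of 0.10 ± 0.07. Its partner Atp5a1, the alpha chain, had 660, 652 and 643 CPM with IFN-γ and 552, 615 and 559 CPM untreated, which do not overlap. The log2 fold change of Atp5a1 was 0.18 ± 0.06, and the adjusted p of 0.0589 missed the threshold; DESeq2 called it (0.18, adjusted p = 0.0358). The central stalk gene Atp5c1 was at 0.03 ± 0.09 and the peripheral stalk gene Atp5pb at 0.14 ± 0.10, with adjusted p of 0.836 and 0.295. Atp5a1 and Atp5pb were called without untreated replicate 2, at 0.23 ± 0.04 and 0.26 ± 0.06, together with Atp5l, Atp5o and Atp5g3 at 0.15 to 0.20, while Atp5b was at 0.14 ± 0.06 with an adjusted p of 0.0696. Atp5j2, a small membrane subunit, had 791 ± 63.9 TPM with IFN-γ and 905 ± 108 TPM untreated, and Atp5b 880 ± 10.6 TPM with IFN-γ and 893 ± 33.9 TPM untreated (SD, n = 3). These were the highest levels per length in complex V over all 6 libraries. Atp5b stood above Atp5j2 in every library except untreated replicate 2, where Atp5b had 867 TPM and Atp5j2 1025 TPM.

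The c subunit, which forms the rotating ring, comes from 3 genes that encode the same mature protein with different import sequences. Atp5g2 made up the largest share of their TPM, at 45.5 ± 0.701% with IFN-γ and 46.5 ± 0.502% untreated. Atp5g3 followed with 36.4 ± 1.13% with IFN-γ and 35.6 ± 0.805% untreated, and Atp5g1 with 18.2 ± 0.774% and 17.96 ± 0.399% (SD, n = 3). The exact permutation tests gave p of 0.2, 0.5 and 0.8, where 0.1 is the smallest possible. The order was the same in all 6 libraries, and the groups overlapped for each gene. Of the 50-base stretches, 38.4% of Atp5g2 and 10.2% of Atp5g1 occur in other genes, so part of these counts is uncertain.

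Together the members took 2.45%, 2.62% and 2.63% of all TPM with IFN-γ and 2.58%, 3.05% and 2.69% untreated. Complex V took the largest part, from 0.786% to 0.829% with IFN-γ and from 0.815% to 0.954% untreated, followed by complex IV, complex I, and complex III with cytochrome c. TPM shares carry no TMM factor, and with total counts as scaling the median log2 fold change was -0.18 over all genes tested and -0.17 over the members. On that scale 1 member was called higher and 3 lower (Ndufs7, Cox7a2l and Ndufb8), where 12.8% of all genes were higher and 34.9% lower.

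Genes that serve the chain without being its subunits were taken from lists. Of 65 tested genes from lists of complex II, assembly factors, regulators, and electron entry or outlets, 8 were called higher with IFN-γ, AA467197 included, and 5 lower, against the 19.6% and 16.8% of all genes given above. No gene of complex II was called, with a median log2 fold change of 0.04 over its 4 genes, and 1 of them was called higher without untreated replicate 2. Among 16 complex IV assembly genes 2 rose and 1 fell. Coa5 rose 2.07 times, at 281, 277 and 273 CPM with IFN-γ and 139, 129 and 134 CPM untreated, well apart (1.05 ± 0.05 on the log2 scale, edgeR's adjusted p = 2.21e-06). Sco1, a copper chaperone gene, rose by 0.27 ± 0.08 and Coa6, another gene of copper delivery, fell by 0.37 ± 0.12 on the log2 scale. Sco1 lost its call in 8 of 18 settings and Coa6, which overlaps Tarbp1 on the other strand over 15.99% of its exon length, in 3.

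Among the 14 complex I assembly genes 2 fell and 0 rose, where 16.8% of all genes were lower. With untreated replicate 2 left out, 3 of them were called lower and 2 higher, where 21.1% and 24.0% of all genes were. Ndufaf7, a methyltransferase of complex I assembly, had 13.0, 13.6 and 14.2 CPM with IFN-γ and 16.9, 18.7 and 16.2 CPM untreated, and fell by 0.34 ± 0.08 on the log2 scale. Ndufaf4 fell by 0.20 ± 0.07 and lost its call in 8 of 18 settings. The 6 complex III and 3 complex V assembly genes had 0 calls, with medians of -0.08 and -0.16, and 1 complex III assembly gene was called lower without untreated replicate 2.

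Of 12 regulators of mitochondrial genes 4 rose and 1 fell, where 19.6% of all genes were higher and 16.8% lower, and 5 were higher and 1 lower without untreated replicate 2. Ppargc1b, the coactivator PGC-1β, had 7.52, 6.35 and 5.83 CPM with IFN-γ and 2.56, 1.66 and 2.22 CPM untreated, and rose 3.05 times (log2 fold change 1.61 ± 0.17, adjusted p = 0.00014). Perm1, known from muscle as a target of PGC-1 and ERR factors, rose by 1.04 ± 0.10, and Esrra, the nuclear receptor ERRα, by 0.35 ± 0.06. Gabpa, an ETS factor gene, rose by 0.32 ± 0.06 and Tfb2m, a mitochondrial transcription factor gene, fell by 0.27 ± 0.08. Ppargc1a was below the filter on low counts. Of Ppargc1b's exon length 20.1% overlaps Pde6a on the other strand, which averaged 3.3 counts, against 137 for Ppargc1b, and Perm1 overlaps AW011738 on its own strand. Of 9 genes of electron entry and outlets 1 rose and 1 fell, and 3 were higher and 1 lower without untreated replicate 2. Gpd2, the mitochondrial glycerol-3-phosphate dehydrogenase that feeds electrons to ubiquinone, rose 2.22 times. It had 68.2, 62.4 and 59.1 CPM with IFN-γ and 30.2, 25.2 and 30.0 CPM untreated, which are apart. Dhodh, which feeds electrons from pyrimidine synthesis, fell by 0.36 ± 0.10 on the log2 scale and lost its call without IFN-γ replicate 1 or 2. Ndufaf7, Coa5, Ppargc1b, Perm1, Esrra and Gpd2 kept their calls in all 18 settings that use the threshold of 0.05; at 0.01 Ndufaf7, with an adjusted p of 0.0114, is not called.

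Other gene families were read in the same fit for comparison. Of 52 mitochondrial ribosomal protein genes, 2 were called higher and 4 lower, where 19.6% of all genes were higher and 16.8% lower, with a median log2 fold change of -0.07. Of 61 cytosolic ribosomal protein genes 0 were called in either direction, 0 also passed an unadjusted p under 0.05, and their median was -0.05. Without untreated replicate 2 the medians were 0.04 and 0.11, next to 0.13 for the respiratory chain, and 9 and 1 genes were called higher and 4 and 0 lower, where 24.0% of all genes were higher and 21.1% lower. The difference between these families and the respiratory chain was not tested.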

How the data were processed

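RNA was measured in 6 libraries by poly(A) sequencing with a stranded kit, per the labels' protocols. HISAT2 and mm10 are named without versions in the submitters' processing notes; no counting tool or strand setting is named there. Of 35270 symbols shared with RefSeq GRCm38.p6, 1.7% had the same coordinates, so the tables' coordinates are printed with no build. The deposited tables hold whole-number counts, which were tested, with TPM, used for levels per length, and FPKM, deposited by the authors and not used; the units are per the file headers. Groups came from the titles. Counts were tested in R 4.3.3 by glmQLFTest of edgeR 4.0.16 (with limma 3.58.1) after filterByExpr (minimum count 10, minimum total 15) and TMM scaling. Tests were two-sided, and p-values were adjusted by Benjamini-Hochberg over 12968 genes, at a threshold of 0.05. Errors of fold changes are standard errors. Paralog shares used exact permutation tests. Uniqueness was read from 50-base stretches of GENCODE M21 transcripts (77 members matched by symbol, 16 with at least 10% shared), and 8 members share at least 10% of their exon length with a gene of the opposite strand. The test was checked on simulated counts that held no trend on exon length, so this check does not cover the length trends of the libraries. Members, lists and alternatives were chosen with earlier results of these data known. A few items are not reported here. Named genes were called members, the 2 most abundant and 3 most changed per complex, paralog sets, catalytic subunits, and up to 3 called genes per other list. Alternatives were RLE, upper quartile, total count and short-gene scaling, 2 other filters, DESeq2 1.42.0, limma-voom, a robust fit, the replicate block, a threshold of 0.01, removal of the length trend (lowess, span 0.5), and each library left out. Removal of the trend together with untreated replicate 2 was added after seeing the data. Python 3.11.15 and matplotlib 3.10.9 made the figures.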

Additional observations from a re-analysis of the deposited data

How the results depend on the processing

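The count of members called higher, 3 with all libraries, was 0 at a threshold of 0.01, and 1 with upper quartile scaling, total counts, no low-count filter or at least 5 CPM in 3 libraries. It was 13 with the length trend removed and 24 when untreated replicate 2 was left out as well. Leaving out each library gave between 0 and 25, with 25 only without untreated replicate 2. The count of members called lower was 0 in all settings except total counts, where it was 3. The median log2 fold change of the members ranged from -0.17 with total counts to 0.13 without untreated replicate 2. Upper quartile scaling and total counts shifted the median of all genes by -0.15 and -0.17, and the members' median stayed within 0.01 of it in both. The value of Cox5a was 0.18 without untreated replicate 2 and 0.20 with the length trend also removed, both called higher, against -0.01 with all libraries. The range over libraries left out reached down to -0.12 for Cox5a, without untreated replicate 3. Uqcrc2 was at -0.0012 with total counts. The causes were not tested. With the replicate number as a block 2 members were called higher and none lower, with a median of 0.002. The deviations of same-numbered libraries correlated at 0.589, 0.389 and -0.398 for numbers 1, 2 and 3 over 9585 genes. Those of differently numbered libraries correlated at between -0.643 and 0.548. The deviations also hold each library's length trend, so these values cannot settle whether same-numbered libraries are paired. Of 37 named genes without a call, 122 values in other settings changed sign without being called. Depth limits Ndufb4c, Cox4i2, Cox6b2 and Cox6a2, which rest on at most 34 counts in a library.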
